A study of Mus musculus with 24 samples.

Results

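Canonical CD8+ dendritic cells (C_CD8) from the spleens of mice with 1 mutant Flt3 allele were compared with the same sorted cells from wild-type mice. The comparison used the 6 C_CD8 libraries of the 24 RNA-sequencing libraries in the series: 3 from Flt3 +/+ mice (WT) and 3 from Flt3 ITD/+ mice (ITD), in batches B, C and D, with 1 library of each genotype in each batch. Libraries were paired by the batch letter, which the labels give as the experiment, and all genes were examined. All mice were F1 animals of a C57BL/6 x FVB/N cross. The labels give no treatment, age, number of mice per library or origin of the ITD allele, and the ITD allele is not said to be limited to any cell type, so effects of other ITD-bearing cells on the sorted cells are part of the contrast. Total RNA was taken from cells sorted by flow cytometry, and the other 18 libraries came from plasmacytoid cells (PDC), non-canonical CD8+ cells (NC_CD8) and the Esam-high and Esam-low fractions of CD11b+ cells, again from both genotypes.

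Canonical CD8+ dendritic cells, also called cDC1, take up dead cells and cross-present their antigens on MHC class I to CD8+ T cells. They depend on the transcription factors IRF8 and BATF3 and carry the chemokine receptor XCR1 and the dead-cell receptor CLEC9A. FLT3 is a receptor tyrosine kinase whose ligand sustains dendritic cell development in the spleen, and an internal tandem duplication (ITD) in its juxtamembrane region, a common lesion of acute myeloid leukemia, makes the kinase signal without ligand, with STAT5 among the factors it activates.

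The markers of the canonical subset were present in every library of both genotypes. Levels below are CPM, the usual unit of a gene's count relative to its library's total, here scaled by TMM factors. Xcr1 measured 657, 1223 and 1074 CPM in WT batches B, C and D, and 575, 1164 and 1061 CPM in ITD. Irf8 measured 1843, 3575 and 2626 CPM in WT and 1489, 3324 and 2668 CPM in ITD. For both genes batch B was the lowest in each genotype and the genotypes overlapped. Cd8a, the antigen that names the subset, measured 693, 672 and 628 CPM in WT and 559, 527 and 462 CPM in ITD, every ITD library below every WT library. Its log2 fold change was -0.37 with an adjusted p of 0.221. Of the 22 genes listed for cDC1 identity, all were tested and 0 were called in either direction, with a median log2 fold change of -0.04. Plpp1 and Cd8a were the 2 whose ITD libraries all lay below WT, as in 3.02% of all genes. Itgae, the CD103 integrin chain, had the largest difference in the list, a log2 fold change of 1.08 with an adjusted p of 0.0764.

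The libraries held 13936950 to 21270127 counts each, and mitochondrial genes took 1.29% to 1.8% of them. As a check for a library deposited more than once, counts of libraries of 1 genotype were compared, and every pair differed by more than read sampling gives (chi-square over its degrees of freedom from 20.1 to 84.0). Libraries of the same batch deviated together from their group means (r of 0.509, 0.368 and 0.198 across genes in batches B, C and D). Those of different batches and genotypes had r from -0.381 to 0.0784. Because deviations from a group mean cancel, positive r within batches by itself pushes r between batches down. Batch B stood apart: its libraries of both genotypes held Xist reads (49.6 CPM in WT and 131 CPM in ITD) with 0 in batches C and D, while Y-linked Ddx3y ranged from 137 to 192 CPM over all 6 libraries.

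In ITD cells 215 genes rose and 8 fell of 18093 tested (edgeR quasi-likelihood test with the pairs as a block, Benjamini-Hochberg adjusted p under 0.05), which is 1.19% and 0.0442% of all genes, or 1.23% together. Across all genes the median log2 fold change was 0 and 50.1% were above 0. The rises were 110 of more than 2-fold and 43 of more than 4-fold, and the median log2 fold change of the 215 was 1.02. All 215 were higher in 3 of 3 pairs, against 17.8% of all genes, and for 132 every ITD library lay above every WT library, against 4.7% of all genes. These last counts use the contrast that made the calls and describe it. Without the pair block, 3 genes were called (Plxdc2, Cd209d and Gprasp2, chosen after their values were seen), and 787 had an unadjusted p under 0.05 against 2141 with it.

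**Figure D1:**
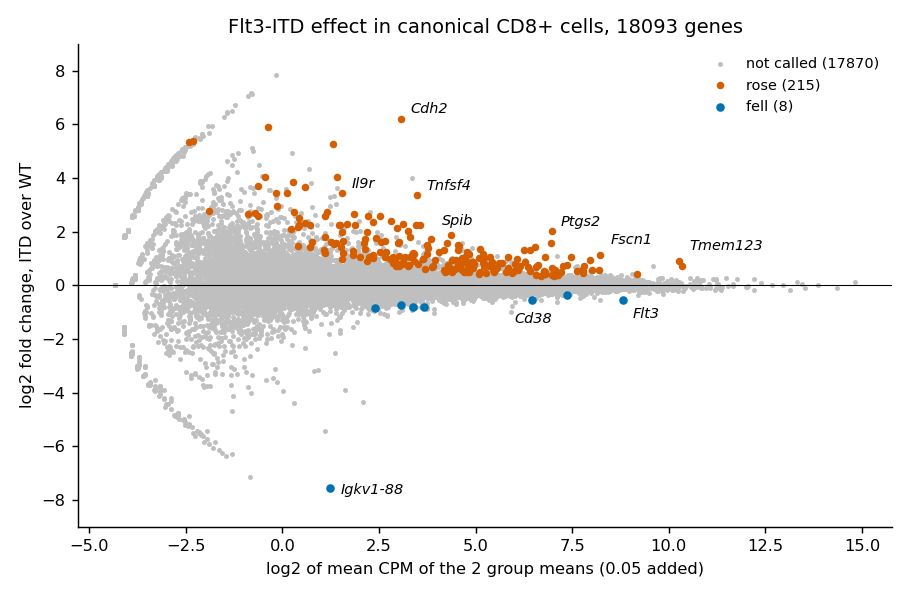
Each point is 1 of 18093 genes, with the log2 of its mean CPM on the x axis and its log2 fold change (ITD over WT, canonical CD8+ cells) on the y axis. The 215 genes that rose are in orange and the 8 that fell in blue. Most called genes with more than 2-fold rises have low to middling levels, with Fscn1 and Ptgs2 among the exceptions. Tmem123 also has a high level, with a smaller log2 rise of 0.91.

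Batch B often held the highest level. Among the 215 risen genes its WT library was the highest of 3 for 120 (55.8%, against 39.7% of all genes) and its ITD library for 132 (61.4%, against 39.0%). The median difference within a pair over the risen genes was 1.08 on the log2 scale in batch B, 0.91 in C and 0.93 in D. Leaving out both libraries of batch B, C or D in turn gave 86, 137 or 143 calls, and 52 of the 223 genes, 51 of them risen, were called in all 3 of these fits.

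Flt3 itself fell. It lies on mouse chr5:147330741-147400489 (GRCm38, minus strand), and its reads come from both alleles, which gene counts do not separate. Its levels were 440, 607 and 570 CPM in WT and 315, 386 and 393 CPM in ITD, so that every ITD library lay below every WT library. The log2 fold change over the 3 pairs was -0.56 ± 0.08 (SE from the fit to all 24 libraries, edgeR adjusted p = 0.00438). Flt3 was called in each fit without 1 pair. Its effects in PDC, NC_CD8, Esam-high and Esam-low cells were -0.19, -0.28, -0.15 and -0.31, and the C_CD8 effect did not pass the test against their mean (difference -0.32, adjusted p = 0.277). Of 95 tested genes within 5 Mb of Flt3, 1 rose (Fscn1) and 0 fell, against 1.19% and 0.0442% of all genes.

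Of 22 cytokine receptors 4 rose (Il2rg, Il7r, Il21r and Il4ra) and 1 fell (Flt3), against 1.19% and 0.0442% of all genes, and the median of the list was 0.23, against 0. The 4 that rose are the common gamma chain of lymphocyte cytokine receptors and 3 chains that pair with it. Il2rg, the shared gamma chain, measured 42.1, 25.2 and 41.7 CPM in WT and 112, 47.1 and 74.5 CPM in ITD, a log2 rise of 1.05 ± 0.12 (SE, adjusted p = 0.00136). All its ITD libraries lay above all WT libraries. Il7r, the interleukin-7 receptor alpha chain, went from 5.67, 4.17 and 2.03 CPM to 16.1, 8.05 and 12.3 CPM, a log2 rise of 1.62 ± 0.23 (adjusted p = 0.00542). Il21r measured 76.7, 26.6 and 63.5 CPM in WT and 147, 59.6 and 93.6 CPM in ITD, and rose by 0.88 ± 0.12 (adjusted p = 0.00498). The genotypes overlapped across batches for Il21r, because the WT level in batch B exceeded the ITD level in batch C, but every pair was higher in ITD. Il4ra, which pairs with the gamma chain in the interleukin-4 receptor, rose by 0.43 ± 0.08 (adjusted p = 0.0256) and was called in 0 of the 3 fits that left out a pair. Il9r, whose chain also pairs with the gamma chain and which was not on the list, had 32, 0 and 2 reads in WT and 143, 27 and 54 in ITD, with a fitted log2 rise of 3.44 ± 0.63 (adjusted p = 0.0188); it too was called in 0 of those 3 fits. Of the 50-base words of Il2rg, 27.5% also occur in other transcripts. The model Gm20489 overlaps Il2rg on the same strand, so the level of Il2rg is uncertain. Kit (0.24, adjusted p = 0.354), Csf2rb (0.10, adjusted p = 0.789) and Csf1r (0.64, adjusted p = 0.543) were not called.

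Genes listed as STAT5 targets and survival kinases were mostly a little higher, and 1 of 19 was called. The median of the list was 0.20 and 17 of the 19 were above 0, against 0 and 50.1% over all genes, of which 1.23% were called. Stat5b, one of the STAT5 genes itself, measured 70.0, 86.4 and 87.5 CPM in WT and 97.2, 101 and 122 CPM in ITD. Its ITD libraries all lay above the WT libraries, with a log2 rise of 0.39 ± 0.08 (adjusted p = 0.0303, and called in 1 of 3 fits without a pair); 11% of its 50-base words occur in other transcripts. Socs2, a feedback inhibitor that STAT5 induces, measured 26.4, 15.9 and 27.3 CPM in WT and 36.6, 33.7 and 46.3 CPM in ITD. All ITD libraries were above WT, and the log2 fold change of 0.77 did not pass the test (adjusted p = 0.108). Cish (0.32, adjusted p = 0.875), Pim1 (0.14, adjusted p = 0.682) and Pim2 (0.00, adjusted p = 1) were not called either. Of 18 tested genes of MAPK feedback and response, 0 were called, with a median of -0.11 and 8 above 0. Etv5, a target of ERK signalling, was below WT in every ITD library (5.46, 4.6 and 5.99 CPM in WT, 2.75, 1.83 and 1.79 CPM in ITD) with an adjusted p of 0.0914.

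**Figure D2:**
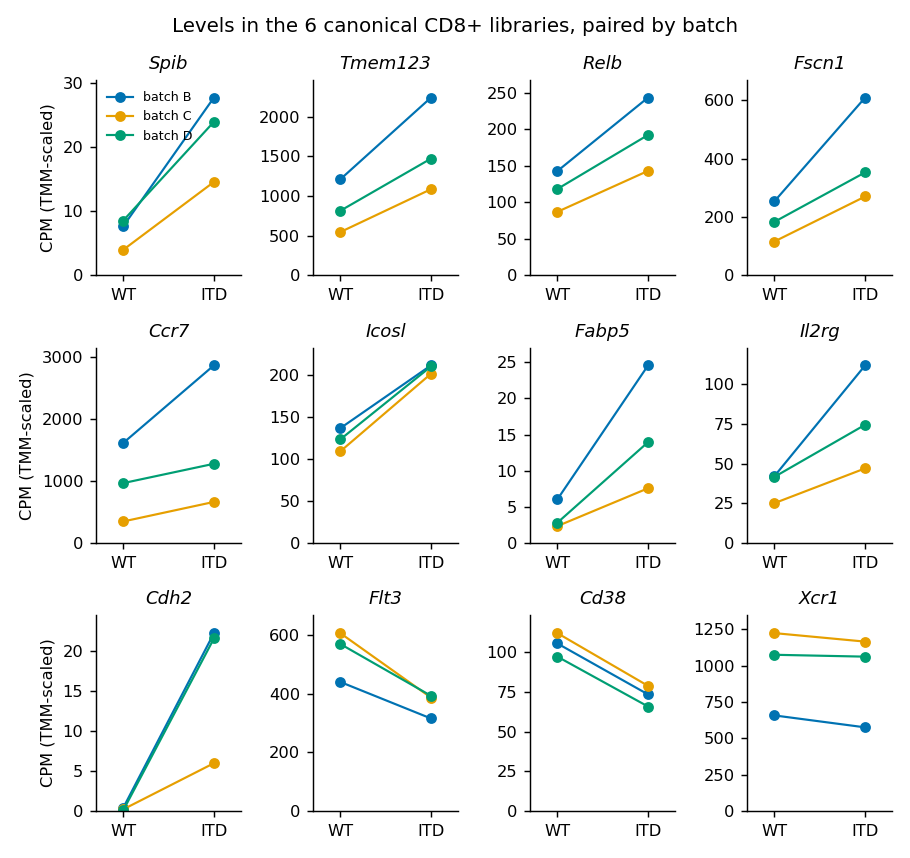
CPM of 12 genes in the 6 canonical CD8+ libraries, WT at the left and ITD at the right of each panel, with a line joining the libraries of a batch. Lines of Spib, Tmem123, Relb, Fscn1, Ccr7, Icosl, Fabp5, Il2rg and Cdh2 rise in 3 of 3 batches, those of Flt3 and Cd38 fall in 3 of 3, and Xcr1 differs more between batches than between genotypes.

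Genes of dendritic cell maturation, the program by which these cells leave tissue for lymph nodes and present antigen to T cells, held 7 risen genes of 30 and 0 that fell. The median of the 30 was 0.41, 28 were above 0 and 20 were higher in 3 of 3 pairs; over all genes 1.19% rose, the median was 0, 50.1% were above 0 and 17.8% were higher in 3 of 3 pairs. Tmem123, which encodes the surface mucin porimin and lies at chr9:7764041-7794333, measured 1209, 545 and 813 CPM in WT and 2241, 1086 and 1472 CPM in ITD. Each batch gave nearly the same rise (0.890, 0.995 and 0.856 on the log2 scale), whereas levels in batches B and C of 1 genotype differed by as much, so that the genotypes overlapped. The fitted rise was 0.91 ± 0.07 (SE, adjusted p = 0.000124). Fscn1, the actin-bundling protein of dendrites, measured 254, 116 and 183 CPM in WT and 609, 270 and 353 CPM in ITD, with no overlap and a rise of 1.14 ± 0.10 (adjusted p = 0.000286).

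Ccr7, the receptor that guides mature dendritic cells to lymph nodes, measured 1610, 348 and 965 CPM in WT and 2860, 663 and 1276 CPM in ITD. Its level differed more between batches than between genotypes, and the rise of 0.72 ± 0.13 (adjusted p = 0.0181) was called in 1 of the 3 fits without a pair. Relb, the NF-kappaB subunit of the alternative pathway, went from 143, 86.9 and 118 CPM to 243, 143 and 192 CPM, a rise of 0.73 ± 0.06 (adjusted p = 0.000286). Icosl, the ligand of the T cell costimulator ICOS, was nearly level among libraries of a genotype, at 137, 109 and 123 CPM in WT and 212, 202 and 210 CPM in ITD (0.76 ± 0.10, adjusted p = 0.00438). Icosl and, narrowly, Relb did not overlap between genotypes and, like Tmem123 and Fscn1, were called in all 3 fits without a pair. Marcksl1, a membrane and actin regulator, rose by 0.59 ± 0.11 (adjusted p = 0.0186), and Il4ra is given above.

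The best known activation markers of the list were not called. Cd86 had a log2 fold change of 0.03 (adjusted p = 0.977), Cd80 0.02 (0.993), Cd83 0.06 (0.927) and Cd40 0.21 (0.485), each adjusted p in parentheses. The summed level of the 30 genes was 10255, 5226 and 9096 CPM in WT batches B, C and D and 14815, 7259 and 10307 CPM in ITD, so WT of batch B lay above ITD of batch C.

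**Figure D3:**
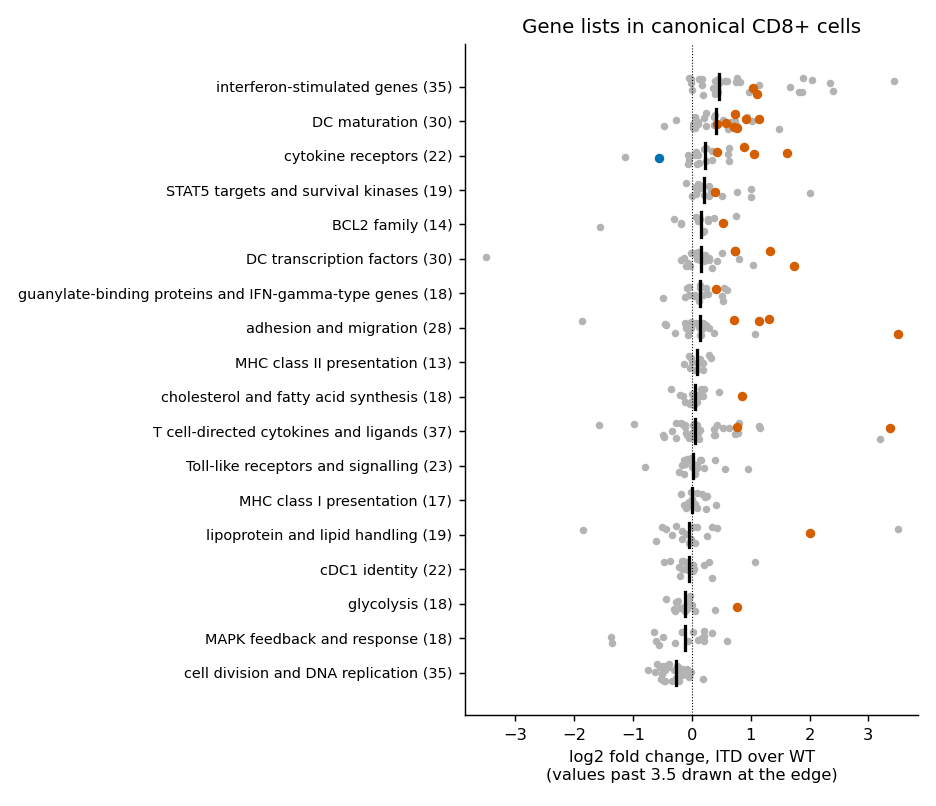
Log2 fold change (ITD over WT) of each tested gene in 18 gene lists, with the number tested in parentheses; bars mark medians, orange points genes that rose, the blue point Flt3, which fell, and grey points genes not called. The interferon-stimulated and maturation lists have medians of 0.46 and 0.41 and the cell division list -0.26.

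Among 37 cytokines and ligands directed at T cells, 2 rose (Tnfsf4 and Icosl) and 0 fell, against 1.19% and 0.0442% of all genes. The list median was 0.06. Tnfsf4 encodes OX40 ligand, and lies at chr1:161395409-161418410. It measured 5.57, 0.144 and 0.0521 CPM in WT (107, 3 and 1 reads) and 59.4, 0.262 and 1.79 CPM in ITD (778, 5 and 30 reads). The ITD library of batch B held nearly all of its reads, batch C differed little, and the WT level in batch B exceeded both other ITD libraries. The fitted rise was 3.37 ± 0.40 (adjusted p = 0.00225), and without the batch B pair the adjusted p was 0.185. Il12b (0.38, adjusted p = 0.451), Cd274, which encodes PD-L1 (0.54, adjusted p = 0.244), Cxcl9 (-0.12, adjusted p = 0.936) and Btla (-0.17, adjusted p = 0.568) were not called. None of the 13 tested genes of MHC class II presentation, the 17 of MHC class I presentation or the 23 of Toll-like receptor signalling was called, and their medians were 0.09, 0.01 and 0.01. Over all genes the same test called 223, and 2141 had an unadjusted p under 0.05.

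Among 30 dendritic cell transcription factors 4 rose (Spib, Relb, Tcf4 and Zeb2) and 0 fell, with a median of 0.15, against 1.19% risen and a median of 0 over all genes. Spib, an Ets factor best known from plasmacytoid cells and B cells, had the smallest p of all genes. It lies at chr7:44525993-44532071, minus strand. Spib measured 7.65, 3.98 and 8.54 CPM in WT and 27.8, 14.6 and 24 CPM in ITD, from 83 to 402 reads a library. Every ITD library lay above every WT library, the log2 rise was 1.73 ± 0.09 (SE, adjusted p = 5.62e-06), and the adjusted p was 1.63e-05 to 0.000216 when a pair was left out. Without the pair block the adjusted p was 0.0695.

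Tcf4, the E protein E2-2 that specifies plasmacytoid cells, measured 30.2, 26.9 and 34.3 CPM in WT and 55.9, 40.5 and 57.3 CPM in ITD, a rise of 0.74 ± 0.10 (adjusted p = 0.00472) with no overlap. Zeb2, a repressor that favours the plasmacytoid and monocyte fates over cDC1, went from 9.16, 9.25 and 9.89 CPM to 46.9, 18.4 and 14.6 CPM. Its rise of 1.33 ± 0.26 (adjusted p = 0.0267) was largest in batch B and was called in 1 of 3 fits without a pair; a gene on the opposite strand, Zeb2os, overlaps it. Tcf7, the T cell factor TCF-1, was not on the list and measured 32.4, 7.81 and 19.5 CPM in WT and 80.8, 24.7 and 42.5 CPM in ITD. The genotypes of Tcf7 overlapped across batches, each pair was higher in ITD, and the rise was 1.35 ± 0.14 (adjusted p = 0.000774). The factors that make cDC1 were not called: Irf8 (-0.13, adjusted p = 0.918), Batf3 (-0.03, 0.972), Id2 (0.21, 0.824) and Nfil3 (0.35, 0.389).

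Adhesion and migration genes held 4 risen of 28 (Cdh2, Ccr2, Fscn1 and Ccr7) and 0 fallen, with a median of 0.14, beside 1.19% risen and a median of 0 over all genes. Cdh2, which encodes N-cadherin, was the largest rise of the whole rule-chosen set. It had 7, 4 and 1 reads in WT and 291, 114 and 361 in ITD, or 0.364, 0.192 and 0.0521 CPM against 22.2, 5.96 and 21.5 CPM. No libraries overlapped, and the fitted log2 rise was 6.22 ± 0.57 (SE, adjusted p = 0.00136). With so few WT reads the size of that rise is imprecise. Ccr2, the receptor of monocyte recruitment, measured 30.6, 57.8 and 49.4 CPM in WT and 48.8, 151 and 175 CPM in ITD, a rise of 1.32 ± 0.20 (adjusted p = 0.00725). Batch B gave the smallest Ccr2 difference (0.67 against 1.39 and 1.82). Cdh1 (-1.87, adjusted p = 0.608), the E-cadherin gene, and the catenin genes Ctnnb1 (-0.01, 0.983) and Jup (-0.06, 0.943) were not called.

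Besides Cdh2, Tnfsf4 and Il9r, the 12 largest rises with at least 5 CPM in ITD were of genes with low WT means, from 1.01 CPM (Chst7) to 3.97 CPM (Crispld2). Itgb3, the integrin beta3 chain, measured 5.20, 1.05 and 0.0521 CPM in WT and 30.6, 3.40 and 1.19 CPM in ITD. Its levels spread widely among batches of 1 genotype, and each pair was higher in ITD (2.40 ± 0.23, adjusted p = 0.000364). Cd209d, a C-type lectin of the DC-SIGN family, measured 1.61, 0.910 and 0.729 CPM in WT and 6.64, 5.02 and 4.06 CPM in ITD, a rise of 2.28 ± 0.21 (adjusted p = 0.000316) that was also called without the pair block. Chst7, a sulfotransferase of chondroitin sulfate, rose by 2.65 ± 0.38 (adjusted p = 0.00528) from 1.46, 1.1 and 0.469 CPM to 7.71, 5.34 and 5.37 CPM. Neither of these last overlapped between genotypes.

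The remaining large rises were Igsf3 (2.57), an immunoglobulin superfamily protein, Efnb2 (2.57), the ephrin-B2 ligand, Ttn (2.36), the giant muscle protein titin, Dscam (2.30), an adhesion molecule of neurons, Crispld2 (2.27), a secreted cysteine-rich protein, and Gria3 (2.26), a glutamate receptor subunit. Their adjusted p ran from 0.000882 (Igsf3) to 0.0229 (Efnb2). Igsf3, Dscam and Gria3 were called in all 3 fits without a pair, and Efnb2, Ttn and Crispld2 in 1 of 3. Genes on the opposite strand overlap Igsf3, Dscam and Ttn. Crispld2 measured 5.31, 1.15 and 5.47 CPM in WT and 23.3, 8.73 and 21.2 CPM in ITD, above the 7.44 CPM mean of NC_CD8 ITD cells. S100a4 and Lrp8 were named for their difference from other subsets. S100a4, a calcium-binding protein of motile cells, measured 18.9, 2.64 and 4.37 CPM in WT and 74.3, 9.31 and 14.5 CPM in ITD (1.86 ± 0.17, adjusted p = 0.000286). Of its 50-base words, 47.4% occur in other transcripts, and the model Gm42674 overlaps it on the same strand. Lrp8, the ApoE and reelin receptor ApoER2, measured 20.5, 3.11 and 5.47 CPM in WT and 58.5, 7.43 and 20.6 CPM in ITD (1.58 ± 0.14, adjusted p = 0.000316). In both genes batch B was far above the others in each genotype.

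Metabolic lists moved little apart from single members, and over all genes 1.19% rose. Fabp5, a carrier of fatty acids in the cytosol, was the 1 called gene of 19 for lipoprotein and lipid handling. It measured 6.04, 2.35 and 2.81 CPM in WT and 24.6, 7.58 and 14 CPM in ITD, with no overlap and a rise of 2.02 ± 0.16 (adjusted p = 0.000228). The list's median was -0.04. Idi1, an enzyme of the isoprenoid branch of cholesterol synthesis, was the 1 called of 18 in its list (0.85 ± 0.14, adjusted p = 0.0107), and 17.7% of its 50-base words occur elsewhere. Slc2a3, the glucose transporter GLUT3, was the 1 called of 18 for glycolysis (0.77 ± 0.13, adjusted p = 0.0137), while the list had a median of -0.11 and 4 members above 0. In the BCL2 family 1 of 14 rose: Bcl2l11, which encodes the death-promoting BIM, measured 78.6, 65.7 and 61.4 CPM in WT and 116, 83.2 and 100 CPM in ITD (0.54 ± 0.11, adjusted p = 0.0367). Its ITD libraries lay above all WT libraries, and it was called in 0 of 3 fits without a pair.

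Interferon-stimulated genes had the highest median of the 18 lists plotted, 0.46, with 2 of 35 called (1.19% of all genes rose). Of the 35, 32 were above 0, 24 were higher in 3 of 3 pairs and 17 had every ITD library above every WT library, against 50.1%, 17.8% and 4.7% of all genes. The 2 called were Ifi203, a DNA sensor of the Ifi200 family, at 4.32, 6.32 and 4.48 CPM in WT and 10.3, 9.41 and 13.2 CPM in ITD (1.11 ± 0.17, adjusted p = 0.00796), and Isg20, an exonuclease, at 3.90, 3.11 and 2.66 CPM in WT and 10.2, 6.17 and 4.30 CPM in ITD (1.04 ± 0.17, adjusted p = 0.0120). Neither overlapped between genotypes, and each was called in 1 of 3 fits without a pair. Of the 50-base words of Ifi203, 12.2% occur in other transcripts, and Mndal overlaps it on the same strand. Members with the largest differences had few reads, such as Ifi44 at 1.35, 1.68 and 1.04 CPM in WT and 11.1, 1.78 and 6.80 CPM in ITD (adjusted p = 0.145). The list's median difference was 0.84 in pair B, 0.26 in C and 0.54 in D. Of 18 tested guanylate-binding protein and interferon-gamma-type genes, 1 rose, Gbp9 (0.41 ± 0.09, adjusted p = 0.0486); 8.05% of its words are shared with other transcripts, and it was called in 0 of 3 fits without a pair.

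Genes of cell division and DNA replication had a median of -0.26, with 1 of 35 above 0 and 22 lower in 3 of 3 pairs, against 18.2% of all genes. None was called. Mki67, the proliferation antigen, measured 91.2, 71.9 and 60.7 CPM in WT and 78.7, 53.7 and 49.5 CPM in ITD (-0.31, adjusted p = 0.736). Mcm2, a subunit of the replicative helicase, measured 109, 77.3 and 79.0 CPM in WT and 91.2, 58.7 and 54.1 CPM in ITD (-0.40, adjusted p = 0.292). Both were lower in each pair and overlapped across batches. In sorted bulk samples, fewer cells of a kind and less RNA of a gene per cell cannot be told apart.

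Of the 8 genes that fell, 7 were protein-coding and lower in 3 of 3 pairs. Cd38, the NAD-consuming surface enzyme, measured 105, 112 and 97.2 CPM in WT and 73.3, 78.7 and 65.7 CPM in ITD. Its ITD libraries all lay below the WT libraries, at -0.53 ± 0.09 (adjusted p = 0.00983). Car9, a carbonic anhydrase, went from 13.6, 12.5 and 13.3 CPM to 5.95, 9.10 and 7.52 CPM (-0.81 ± 0.16, adjusted p = 0.0253). L3mbtl3, a reader of methylated lysines, went from 8.64, 11.8 and 10.6 CPM to 5.49, 7.74 and 5.73 CPM (-0.72 ± 0.14, adjusted p = 0.0267). Gmds, which makes GDP-fucose, fell by 0.79 on the log2 scale (adjusted p = 0.0267), Ranbp1, a partner of the nuclear transport GTPase Ran, by 0.35 (0.0408; 15.6% of its 50-base words occur in other transcripts, and Gm49776 and Trmt2a overlap it), and Smo, the Hedgehog signal transducer, by 0.86 (0.0430). Besides Flt3, only Car9 among the 7 was called in any fit without a pair, in 1 of 3. The eighth, the kappa light chain segment Igkv1-88, was chosen after its values were seen: its reads came almost wholly from the WT library of batch C (13.4 CPM, against at most 0.26 CPM in the other 5 libraries).

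Marks of other dendritic subsets were also higher in the ITD libraries. Of 10 marks of the non-canonical CD8+ subset, 4 rose (Cd209d, Tcf4, Cd209a and Zeb2), all 10 were higher in 3 of 3 pairs and 7 did not overlap; over all genes 1.19% rose, 17.8% were higher in 3 of 3 pairs and 4.7% had every ITD library above WT. Their summed level was 60.2, 59.8 and 65.6 CPM in WT and 163, 115 and 108 CPM in ITD. Of 16 plasmacytoid genes 5 rose (Spib, Tcf4, Ly6c2, Zeb2 and Runx2), and the sum went from 246, 288 and 271 CPM to 398, 372 and 404 CPM. Siglech, a defining plasmacytoid lectin, measured 5.46, 6.76 and 7.03 CPM in WT and 9.54, 14.8 and 9.01 CPM in ITD (adjusted p = 0.0530), and Cox6a2 and Klk1 stayed at or under 1.26 CPM throughout. Of 15 cDC2 genes 3 rose (Cd209a, Cd7 and Sirpa), with sums of 338, 512 and 567 CPM in WT and 556, 524 and 647 CPM in ITD. The lists share genes: Tcf4 and Zeb2 are in the first pair of lists and Cd209a is a mark of both non-canonical CD8+ cells and cDC2. Cd209d, listed for non-canonical CD8+ cells, had WT means of 458 CPM in PDC and 258 CPM in NC_CD8.

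Of 15 monocyte and macrophage genes 3 rose (S100a4, Ccr2 and Ly6c2), against 1.19% of all genes. The sum of the 15 ranged from 978 to 1434 CPM in WT and from 1254 to 1725 CPM in ITD. Fcgr1, a defining macrophage receptor, was at or under 0.785 CPM in all 6 libraries, and Cd14 (-0.12) and Lyz2 (0.15) were not called. Klrd1 was the 1 of 13 NK cell genes that rose, and Kdr the 1 of 12 of stroma and endothelium. The NK list had a median of -0.51 with 4 genes above 0, and the stroma and endothelium list -0.01 with 6 above 0. In NC_CD8 cells the WT and ITD means were 251 and 280 CPM for Klrd1 and 37.3 and 98.5 CPM for Kdr. Of 11 tested genes of red pulp macrophages 0 were called, with a median of -0.65 and sums of 119, 349 and 399 CPM in WT and 113, 252 and 177 CPM in ITD. B cell, T cell, plasma cell, neutrophil, erythroid and progenitor lists had 0 called genes. The list of early response and handling stress also had 0 called. Its median was 0.14, and 14 of its 16 genes were above 0, against 50.1% of all genes. Its median difference was 0.27 in pair B, 0.17 in C and 0.02 in D.

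**Figure D4:**
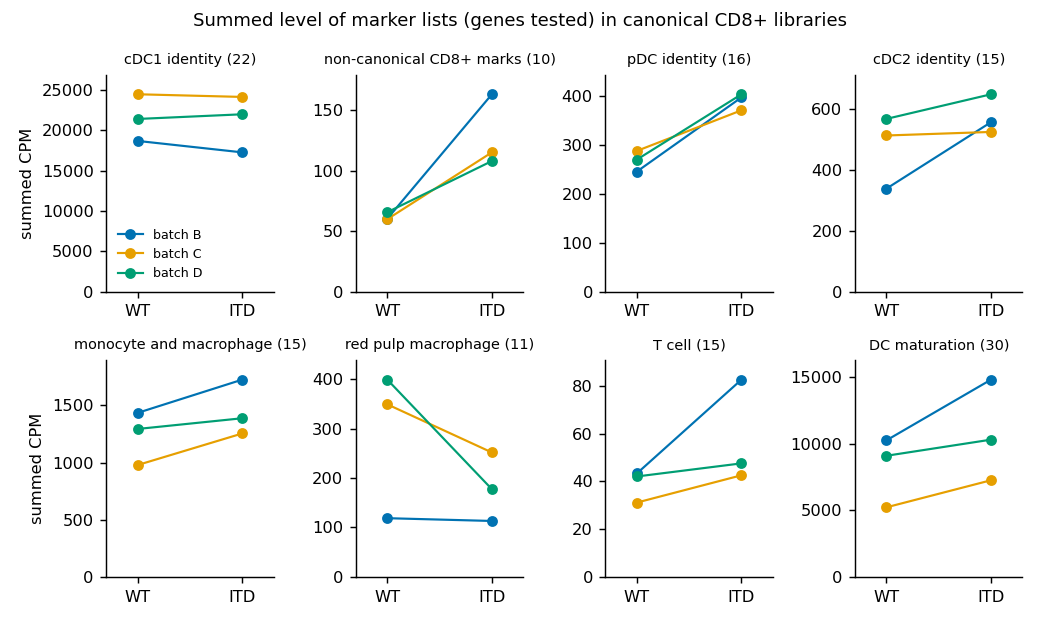
Summed CPM of the tested genes of 8 marker lists in the 6 canonical CD8+ libraries, WT left and ITD right, with lines joining the libraries of a batch and the number of genes in parentheses. The sum of the 10 non-canonical CD8+ marks is higher in ITD in 3 of 3 batches, while that of the 22 cDC1 genes ranges from 17277 to 24489 CPM with both genotypes intermixed.

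Most risen genes were at higher levels in non-canonical CD8+ cells of the ITD genotype. Of the 215, the C_CD8 ITD mean exceeded the NC_CD8 ITD mean in 28 (13.0%, against 49.7% of all genes). The rise in C_CD8, as a percentage of the NC_CD8 ITD level, had a median of 17.2% and quartiles of 8.82% and 29.7%, and was over 50% for 27 genes. It was 1.06% for Cd209d, 1.71% for Cd209a, 3.36% for Tcf4, 4.78% for Zeb2, 9.88% for Spib, 22.5% for Relb, 27.8% for Fscn1 and 72.5% for Tmem123. NC_CD8 was not the only subset with high levels. In PDC ITD cells the means were 1008 CPM for Spib, 1250 CPM for Tcf4 and 401 CPM for Cd209d. In NC_CD8 ITD cells they were 156, 619 and 392 CPM. Zeb2, Relb, Fscn1 and Tmem123 were lower in PDC ITD than in NC_CD8 ITD cells. For Cdh2 the C_CD8 ITD mean of 16.6 CPM was above the 3.82 CPM of NC_CD8 ITD cells, for Tmem123 it was 1600 against 1026 CPM, and for Idi1 47.3 against 35.6 CPM. Other subsets exceeded C_CD8 ITD cells for these 3 as well: Cdh2 had a mean of 18.1 CPM and Tmem123 of 1944 CPM in Esam-high ITD cells, and Idi1 of 115 CPM in PDC ITD cells. The part of other cells in these rises was not tested.

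The effect in C_CD8 cells was then tested against the mean effect in the other 4 subsets. Only NC_CD8 came from the same batches B, C and D. PDC pairs came from batches A and B, and Esam-high and Esam-low pairs from C and D. In the test against the mean of the 4, differences of subset and of batch therefore cannot be fully told apart. The difference was positive for 37 genes (0.204% of those tested) and negative for 3 (0.0166%), and against NC_CD8 alone it was positive for 96 (0.531%) and negative for 21 (0.116%), or 117 genes together (0.647%). Without the pair block these counts were 0 and 1 in all. Spib had a C_CD8 effect of 1.73 and effects of -0.22 in PDC, 0.31 in NC_CD8, 0.49 in Esam-high and 0.67 in Esam-low cells, a difference of 1.42 ± 0.10 from their mean (adjusted p = 0.000179). Lrp8 differed by 1.70 ± 0.16 (adjusted p = 0.00174), with effects of 0.13, -0.54, 0.16 and -0.24 in the other subsets in the same order. Itgb3 differed by 2.34 ± 0.24 (adjusted p = 0.00234), Tcf7 by 1.64 ± 0.17 (adjusted p = 0.00234), S100a4 by 1.69 ± 0.19 (adjusted p = 0.00420) and Igsf3 by 2.73 ± 0.31 (adjusted p = 0.00444). These 6 had the smallest p of this test. Tmem123 (0.47, adjusted p = 0.0327) and Relb (0.45, adjusted p = 0.0327) also passed.

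The 3 with a smaller effect in C_CD8 were Socs2 (-2.02, adjusted p = 0.00535), the interferon-induced GTPase gene Gbp2b (-1.25, adjusted p = 0.0236) and the unannotated model Gm9847 (-1.98, adjusted p = 0.0319), named because they are so few. Socs2 also differed from NC_CD8 (-2.21, adjusted p = 0.00950), where its mean went from 3.55 to 27.4 CPM, compared with 23.2 to 38.9 CPM in C_CD8. Pim2, another STAT5 target, had a smaller effect than in NC_CD8 (-1.02, adjusted p = 0.0135).

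Other risen genes did not pass the test of a difference. Fscn1 had effects of 1.66, 0.98, 1.17 and 1.60 in PDC, NC_CD8, Esam-high and Esam-low cells (difference -0.21, adjusted p = 0.792). Cdh2 had 4.53, 8.93, 8.90 and 6.49 (difference -0.99 ± 0.71, adjusted p = 0.887), and Ccr7 0.66, 0.96, 0.31 and 0.79 (difference 0.04 ± 0.15, adjusted p = 1). WT means of Cdh2 in the other subsets were 0, 0, 0.0286 and 0.0298 CPM, so the sizes of its effects there are imprecise. In PDC its ITD mean was only 0.154 CPM. Its effects in PDC and Esam-low cells were not called (edgeR adjusted p = 0.780 and 0.0775).

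**Figure D5:**
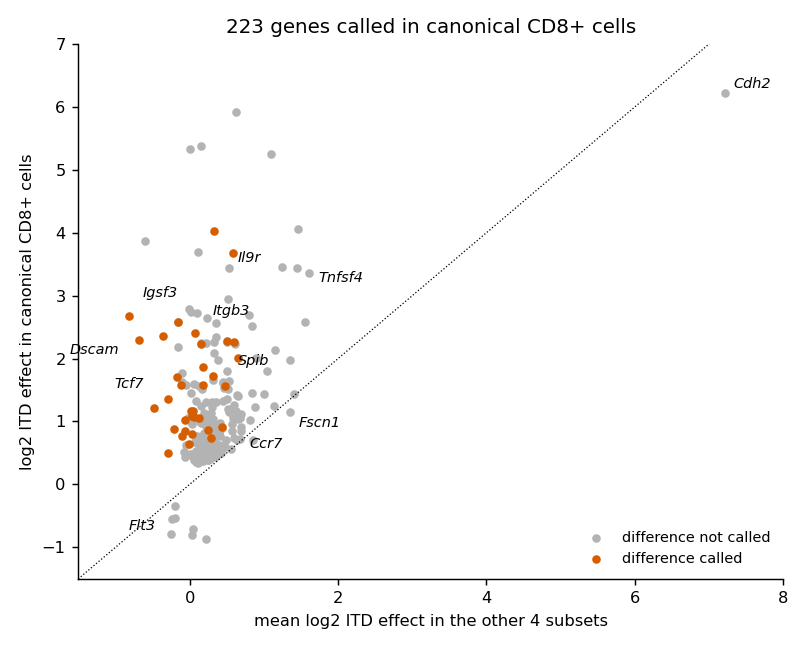
Log2 ITD effect in canonical CD8+ cells (y axis) against the mean log2 effect in the other 4 subsets (x axis) for the genes called in canonical CD8+ cells, with genes whose difference between these passed the test in orange and the line of equal effects dotted. Spib, Itgb3, Igsf3 and Tcf7 lie above the line near an x of 0, Cdh2 and Fscn1 lie close to it, and 1 gene, Igkv1-88, falls outside the axes.

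The cDC1 list held differences from NC_CD8 cells. Of its 22 genes, 5 had a higher effect in C_CD8 (Tlr3, Itgae, Gcsam, Rab7b and Cd207) and 0 a lower one. Over all genes these shares were 0.531% and 0.116%. Tlr3 differed by 3.23 (adjusted p = 0.0365), with a C_CD8 effect of -0.17, and Cd207 by 3.42 (adjusted p = 0.00368), with a C_CD8 effect of -0.14. In these genes the C_CD8 level was not called as changed and the NC_CD8 level was the lower in ITD (24.9 to 2.03 CPM for Tlr3 and 26.0 to 2.14 CPM for Cd207). Among genes with the smallest p of this test, Hes1, a Notch target, differed by 1.98 ± 0.18 (adjusted p = 0.000489). It measured 24.7, 53.2 and 27.1 CPM in C_CD8 WT and 20.1, 61.4 and 32.8 CPM in C_CD8 ITD cells, which overlapped. In NC_CD8 the mean of Hes1 fell from 27.6 to 7.29 CPM (log2 effect -1.90, edgeR adjusted p = 3.73e-05). Cd7 differed by 1.22 ± 0.13 (adjusted p = 0.00144); it rose in C_CD8 by 0.51 (adjusted p = 0.0235), and its mean was 472 CPM in NC_CD8 WT and 288 CPM in NC_CD8 ITD. The pseudogene-like model Gm8221 differed by 3.49 ± 0.27 (adjusted p = 0.000311), and 45.1% of its 50-base words occur in other transcripts. Its mean fell from 15.7 to 1.21 CPM in NC_CD8 and went from 156 to 152 CPM in C_CD8.

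Promoters were searched for 3 motifs tied to the pathways above, on both strands, in the 250 bases before each start site (RefSeq promoters, GRCm38.p6). Promoters were matched for 11204 of the 18093 tested genes and for 168 of the 215 risen genes. A STAT motif, TTCNNNGAA, was present in 6.09% of all promoters and in 10 of the risen genes (5.95%). An interferon-stimulated response element (GAAA, 2 bases of any kind, GAAA) was in 2.86% of all promoters, in 5 risen genes (2.98%) and in 11 of 24 interferon-list promoters (45.8%). A kappaB-type motif (GGGA, 1 base of any kind, TTTCC) was in 0.348% of all and in 1 risen gene, Ltb, which encodes lymphotoxin beta. The 7 matched promoters of fallen genes held none of the 3. A match is a stretch of letters, not a measured binding site.

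The 4 sequences show the gene with the smallest p, which has no match, and 3 risen genes with a STAT match: 2 from the lists above, Il7r and Isg20, and Ltb, chosen after its values were seen (31.8, 39.7 and 31.8 CPM in WT, 52.0, 53.5 and 51.7 CPM in ITD, 0.61 ± 0.08, adjusted p = 0.00438). Capitals mark matches, read 5′ to 3′ on the gene's strand: TTCAGAGAA starting 172 bases and the kappaB-type GGAAAGTCCC (the motif on the other strand) 87 bases before the Ltb start site, TTCAGGGAA 142 bases before that of Il7r, and TTCTTGGAA 73 bases before the first of 3 Isg20 start sites in the table. The windows are chr7:44532072-44532321 (minus strand) for Spib, chr17:35194257-35194506 (plus) for Ltb, chr15:9529877-9530126 (minus) for Il7r and chr7:78913174-78913423 (plus) for Isg20.
Spib: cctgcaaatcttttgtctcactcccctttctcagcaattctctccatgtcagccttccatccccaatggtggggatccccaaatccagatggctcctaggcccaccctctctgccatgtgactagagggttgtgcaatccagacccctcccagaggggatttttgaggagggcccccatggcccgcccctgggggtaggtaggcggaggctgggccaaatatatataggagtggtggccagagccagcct
Ltb: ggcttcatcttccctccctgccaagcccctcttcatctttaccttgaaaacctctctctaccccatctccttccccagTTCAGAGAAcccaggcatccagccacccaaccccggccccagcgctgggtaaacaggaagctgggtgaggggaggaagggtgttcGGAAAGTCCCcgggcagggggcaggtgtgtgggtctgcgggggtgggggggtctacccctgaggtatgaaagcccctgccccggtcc
Il7r: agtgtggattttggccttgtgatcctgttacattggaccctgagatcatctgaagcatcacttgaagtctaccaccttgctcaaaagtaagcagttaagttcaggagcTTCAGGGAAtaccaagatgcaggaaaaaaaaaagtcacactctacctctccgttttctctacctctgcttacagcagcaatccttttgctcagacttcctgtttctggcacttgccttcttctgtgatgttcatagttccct
Isg20: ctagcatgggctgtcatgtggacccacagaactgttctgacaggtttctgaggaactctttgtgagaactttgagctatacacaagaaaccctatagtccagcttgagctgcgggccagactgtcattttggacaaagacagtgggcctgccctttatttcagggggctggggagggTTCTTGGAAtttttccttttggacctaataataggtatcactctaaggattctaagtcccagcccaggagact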

How the data were processed

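RNA was sequenced from 24 libraries of sorted mouse spleen cells. Per the labels' protocols, RNA was purified with PicoPure columns, after Trizol in some samples, with cDNA from the Clontech SMART-seq v4 kit. The submitters' processing notes list bcl2fastq 1.8.4, Bowtie2 (given as 0.4), DESeq2 1.8.2 and the mm10 build; strandedness and read counter: not given in the sources used here. Raw read counts per Ensembl gene, deposited by the authors, were analysed; the authors' normalized table was not used. Symbols and positions came from GENCODE vM21 (GRCm38): 37693 of 39017 genes had a symbol.

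R 4.3.3 with edgeR 4.0.16 was used: TMM scaling, filterByExpr (minimum count 10), which left 18093 genes, and the quasi-likelihood test on all 24 libraries with a block for each pair sharing subset and batch and 1 ITD effect per subset (7 residual degrees of freedom, coefficient of variation 0.141; without the block 14 and 0.317). The labels give the batch as the experiment, and in all 3 C_CD8 pairs the correlation of deviations was positive. Genes were called at an adjusted p under 0.05. SE is the absolute log2 fold change divided by the square root of the test's F statistic, in the fit to all 24 libraries. It does not measure the spread among the 3 C_CD8 pairs alone. Per the series design, replicates came from independent experiments. DESeq2 1.42.0 was an alternative. The test was run on counts simulated from its own fitted model. It called 84 of 100 genes changed by 1 on the log2 scale and 99 of 100 changed by 2. Of its 192 calls, 9 were unchanged genes. The simulation kept the pairing and the fitted spread, so it cannot show whether the pair block suits the data. Plots used matplotlib 3.10.9 under Python 3.11.15. CPM carry no molecular identifiers.

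Named genes were Flt3, the 12 largest rises and falls among called, protein-coding genes with the same sign in 3 of 3 pairs and at least 5 CPM in the higher group, the up to 6 called members with smallest p of each list, and the 6 smallest p of each test against other subsets. The comparison, the members and the lists were chosen with earlier results of these data known. Lists are described by their called members and medians, and the same values over all genes tested are given.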

Additional observations from a re-analysis of the deposited data

Results flagged for a closer look

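Named genes are listed here because the ITD effect in C_CD8 cells differed from that in other subsets by a test of the difference itself (edgeR, adjusted p under 0.05). Each value is a difference of log2 effects, C_CD8 minus the other. Against the mean of the other 4 subsets the difference was 1.42 for Spib, 0.47 for Tmem123, 1.36 for Fabp5, 0.45 for Relb and 1.69 for S100a4. It was 1.70 for Lrp8, 1.79 for Cd209d, 2.34 for Itgb3, 1.64 for Tcf7 and 2.73 for Igsf3. Values of the next genes were 0.93 for Il2rg, 1.09 for Il21r, 2.99 for Dscam, 2.72 for Ttn and 0.91 for Idi1. The last were 0.80 for Cd7 and 1.22 for Hes1.

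Against NC_CD8 cells alone the difference was 1.42 for Spib, 0.53 for Tmem123, 0.52 for Relb, 1.65 for S100a4 and 2.12 for Lrp8. The same comparison gave 1.68 for Cd209d, 2.23 for Itgb3, 2.08 for Tcf7, 1.96 for Igsf3 and 1.51 for Il21r. Further differences from NC_CD8 were 2.64 for Dscam, 2.79 for Ttn, -0.73 for Cd38, 1.22 for Cd7 and 0.79 for Il4ra. The remaining ones were -1.16 for L3mbtl3, -1.34 for Smo, 3.49 for Gm8221 and 1.98 for Hes1. Cd38, L3mbtl3 and Smo, which fell in C_CD8 cells, have negative differences. For Hes1 and Gm8221 the C_CD8 effect itself was not called, and the effects in NC_CD8 were -1.90 and -3.61. Both comparisons use the same C_CD8 libraries, so their values are not independent. WT levels of these genes also differed by subset, as given above for some of them. Without the pair block, 0 genes passed the test against the other 4 subsets and 1 against NC_CD8.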

How the results depend on the processing

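Fits differed mainly in how the batch was handled. In C_CD8 cells, 223 genes were called with the pair block; no replicate block gave 3, the 6 C_CD8 libraries alone 93 with a replicate block and 0 without (476 at an unadjusted p under 0.05), DESeq2 with the block 440 (415 higher, 25 lower) and no filter on low counts 352. For the difference from the other 4 subsets, 40 genes were called; no replicate block gave 0 by edgeR (489 at an unadjusted p under 0.05), DESeq2 170 and no filter 107. For the difference from NC_CD8, 117 were called; no replicate block gave 1, DESeq2 317 and no filter 272. Size factors of DESeq2 in edgeR gave 233, 40 and 117. Leaving out a pair gave 86 to 143, 15 to 37 and 52 to 66 calls. The cause of these shifts was not tested. Fits without a pair also hold fewer libraries. The 45 called genes that are named kept their direction in all these settings; 1 was still called without the block, 44 with DESeq2, 22 to 30 without a pair, and 26 with and 0 without the block in the 6 C_CD8 libraries alone, where Il7r (adjusted p = 0.0852), Dscam (0.0575) and Gria3 (0.152), called in every fit without a pair, lost the call. Precision is limited by 3 pairs and, for genes such as Cdh2, by few WT reads.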

Other observations

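Further genes rose in ITD C_CD8 cells outside the lists, and those below were chosen after their values were seen. Ptgs2, the inducible prostaglandin synthase COX-2, measured 59.1, 18.8 and 52.2 CPM in WT batches B, C and D and 431, 73.8 and 118 CPM in ITD, a log2 rise of 2.01 ± 0.25 (SE, edgeR adjusted p = 0.00222). Every ITD library was above WT, and batch B was by far the highest. Il4i1, a secreted amino acid oxidase of antigen-presenting cells, measured 135, 87.7 and 127 CPM in WT and 296, 194 and 232 CPM in ITD (1.05 ± 0.15, adjusted p = 0.00472). Jak3, the kinase that binds the common gamma chain, measured 23.7, 26.6 and 18.7 CPM in WT and 36.4, 40.3 and 41.1 CPM in ITD (0.78 ± 0.11, adjusted p = 0.00526). Neither Il4i1 nor Jak3 overlapped between genotypes.

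Fcgr2b, the inhibitory Fc gamma receptor, measured 15.9, 17.0 and 18.5 CPM in WT and 27.9, 30.8 and 30.5 CPM in ITD (0.80 ± 0.10, adjusted p = 0.00301), with no overlap. Fcer1g, the signalling gamma chain of Fc receptors, measured 20.4, 20.6 and 24.3 CPM in WT and 64.1, 34.9 and 38.5 CPM in ITD (1.02 ± 0.16, adjusted p = 0.00820), also with no overlap. Fcgr3 (0.22, adjusted p = 0.820) and Fcgr4 (-0.38, adjusted p = 0.872), activating receptors of the same family, were not called. Tmem176b and its neighbour Tmem176a, which encode related membrane proteins, rose by 1.57 and 1.33 on the log2 scale (adjusted p = 0.000286 and 0.00128), and both overlapped across batches because batch B was high in each genotype.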
